A study of Mus musculus with 32 samples.

Results

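Anti-PRDM9 ChIP-seq on mouse testis gives some peaks in animals that have no PRDM9, and 252 of the 10121 PRDM9 peaks deposited for RJ2 mice (2.49%) lay over such a peak. They were chosen by the measured peak positions themselves: an RJ2 PRDM9 interval was taken when it shared at least 1 bp with a peak called in Prdm9KO testes, whatever its class. The overlap is thus the rule and not a result. The study's methods describe taking out PRDM9 peaks over Prdm9KO peaks, and peaks common to B6 and RJ2 were set apart. The 2.49%, and the shares below, therefore describe what stayed in the deposited list and not all peaks called in RJ2. Most of the 252 shared peaks, as they are called here, were class 2B sites, with neither the double-strand break mark nor the histone mark of an active hotspot. They stood high among the class 2 peaks in the RJ2 list, and 8 of the 14 class 2 peaks among its first 1012 rows were shared peaks. Early rows also hold wider peaks, which have more room to overlap, and place in the list at equal width was not compared.

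RJ2 is the strain B10.MOLSGR(A)-(D17Mit58-D17Jcs11)/Bdm, on a C57BL/10 background, and expresses the PRDM9Cst variant. The Prdm9KO animals carry a null allele of Prdm9 (strain B6;129P2-Prdm9tm1Ymat/J), and the Spo11KO animals lack SPO11 and carry the PRDM9Dom2 variant of B6 (C57BL/6JOlaHsd). PRDM9 ChIP was made on whole testis at 13 days after birth, with 2 libraries in RJ2, 2 in Spo11KO, 2 in B6 and 1 in Prdm9KO. The same rabbit anti-PRDM9 antibody served for all of them. DMC1 was mapped in whole testis at 5 weeks (2 libraries per strain), and H3K4me3 in pachytene cells separated by elutriation from adult testis (1 library per strain), in B6 and RJ2. The lists hold positions on mm9 and no read counts. The Prdm9KO library was sequenced from 1 end with shorter reads and its peaks were called at a relaxed threshold, so what separates the RJ2 and the Prdm9KO lists in depth, read layout and threshold cannot be told apart from genotype.

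PRDM9 binds DNA through an array of zinc fingers that differs between alleles, and trimethylates histone H3 at lysine 4 beside its site. SPO11 then makes a double-strand break at some of these sites, and DMC1, a recombinase, coats the resected ends, so DMC1 ChIP marks where breaks form. Class 1 peaks carry the RJ2 DMC1 mark, the RJ2-specific H3K4me3 mark or both. Class 2A peaks have only H3K4me3 that B6 and RJ2 share, as promoters do, and class 2B peaks have none of these marks. A ChIP peak in animals without the target protein is signal that does not need the target. What gave it at the shared peaks was not tested.

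The sequences of 4 shared peaks show how unlike each other they are. They are the first shared peak in the RJ2 list for classes 1a, 2A and 2B, and the one with the longest overlap. Each line gives 300 bases of mm9 around the overlap, plus strand, with the bases of the Prdm9KO peak in capitals.

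Pax5 intron, class 1a, chr4:44586796-44587095: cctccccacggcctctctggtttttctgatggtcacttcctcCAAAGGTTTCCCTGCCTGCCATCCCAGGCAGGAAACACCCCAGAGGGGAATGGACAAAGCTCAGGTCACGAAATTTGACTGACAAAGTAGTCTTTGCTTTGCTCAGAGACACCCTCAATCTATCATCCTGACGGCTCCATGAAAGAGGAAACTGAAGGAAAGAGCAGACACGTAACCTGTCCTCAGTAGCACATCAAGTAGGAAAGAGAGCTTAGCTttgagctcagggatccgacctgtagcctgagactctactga

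Arhgef1 intron near a start, class 2A, chr7:25688665-25688964: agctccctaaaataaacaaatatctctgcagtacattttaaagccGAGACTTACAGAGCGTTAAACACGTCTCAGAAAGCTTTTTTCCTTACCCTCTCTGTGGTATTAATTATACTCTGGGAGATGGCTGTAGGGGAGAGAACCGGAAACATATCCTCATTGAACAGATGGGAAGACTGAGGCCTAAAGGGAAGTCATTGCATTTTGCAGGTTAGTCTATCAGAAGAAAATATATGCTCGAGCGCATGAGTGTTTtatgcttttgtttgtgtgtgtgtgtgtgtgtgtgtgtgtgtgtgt

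Iffo2 intron, class 2B, chr4:139143651-139143950: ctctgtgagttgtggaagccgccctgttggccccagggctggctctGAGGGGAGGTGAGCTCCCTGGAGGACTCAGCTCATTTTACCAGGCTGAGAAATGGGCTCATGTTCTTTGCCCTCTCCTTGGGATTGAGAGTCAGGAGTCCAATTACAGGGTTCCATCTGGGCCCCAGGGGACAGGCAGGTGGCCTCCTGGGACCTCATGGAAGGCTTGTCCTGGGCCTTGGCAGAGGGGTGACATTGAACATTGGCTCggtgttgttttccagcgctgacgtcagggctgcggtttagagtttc

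Gm11747 intron, class 2B, chr11:118311445-118311744: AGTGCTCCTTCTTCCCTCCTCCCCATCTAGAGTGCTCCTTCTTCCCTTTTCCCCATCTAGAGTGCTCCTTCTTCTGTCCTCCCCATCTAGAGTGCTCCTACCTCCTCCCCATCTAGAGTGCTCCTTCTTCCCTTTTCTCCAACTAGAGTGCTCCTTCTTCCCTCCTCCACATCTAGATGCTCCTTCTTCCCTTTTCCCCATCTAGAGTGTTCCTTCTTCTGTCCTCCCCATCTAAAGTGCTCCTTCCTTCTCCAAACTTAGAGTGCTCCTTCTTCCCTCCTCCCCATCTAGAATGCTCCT

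The Arhgef1 stretch ends in a run of alternating tg that lay outside the Prdm9KO peak, and the longest repeat of a unit of up to 6 bp in it spanned 33 bp. In the Pax5 and Iffo2 stretches the longest such repeat spanned 12 and 9 bp. The Gm11747 stretch lay wholly inside its Prdm9KO peak and was a degenerate array: AGTGCTCC stood 8 times in the 300 bases shown, and the full 669 bp of the Prdm9KO peak matched itself at 60.1% of positions when moved by 30 bp. GC content was 50.7%, 41.3%, 58.3% and 51.3% in the Pax5, Arhgef1, Iffo2 and Gm11747 stretches, which held 5, 6, 5 and 0 CpG dinucleotides.

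The Prdm9KO peak usually sat inside the RJ2 peak and near its centre. The 252 shared peaks met 256 Prdm9KO peaks, of 2286 in that list (11.2%, 95% Clopper-Pearson interval 9.93 to 12.6%; such intervals here cover counting error only). In 242 of the 256 pairs (94.5%) the whole Prdm9KO interval lay inside the RJ2 interval, and in 186 (72.7%) it held the RJ2 centre. The overlap had a median of 230 bp (quartiles 202 and 277 bp). Prdm9KO peaks were narrow, with a median width of 232 bp for those overlapped and 240 bp for the other 2029 on the chromosomes used. Because of this the median shared peak had 40.5% of its own length covered, and 4 were covered over at least 50%. The distance between the 2 centres had a median of 72.8 bp, with 165 pairs (64.5%) within 100 bp and 24 (9.38%) beyond 250 bp.

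This placement differed by class. In the 20 shared peaks of class 1 the centres were 241 bp apart at the median (quartiles 79.5 and 308 bp), against 72.5 bp in the 32 of class 2A (28.4 and 129 bp) and 68.5 bp in the 200 of class 2B (29.5 and 120 bp). The class 1 shared peaks were also wider (median 839 bp, against 636 bp in 2A and 616 bp in 2B), which leaves room for larger distances. Placement at equal width was not compared. Several class 1 overlaps were of a Prdm9KO peak on the flank of an RJ2 peak. The shared peak first in the RJ2 list, row 42, in an intron of Pax5, which encodes a B-cell transcription factor, was of this kind: its Prdm9KO peak was centred 329 bp from the centre of the 1192 bp RJ2 interval. In an intergenic class 1d peak 30507 bp from the start of Ddit4, a stress-response gene, the distance was 540 bp.

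**Figure D1:**
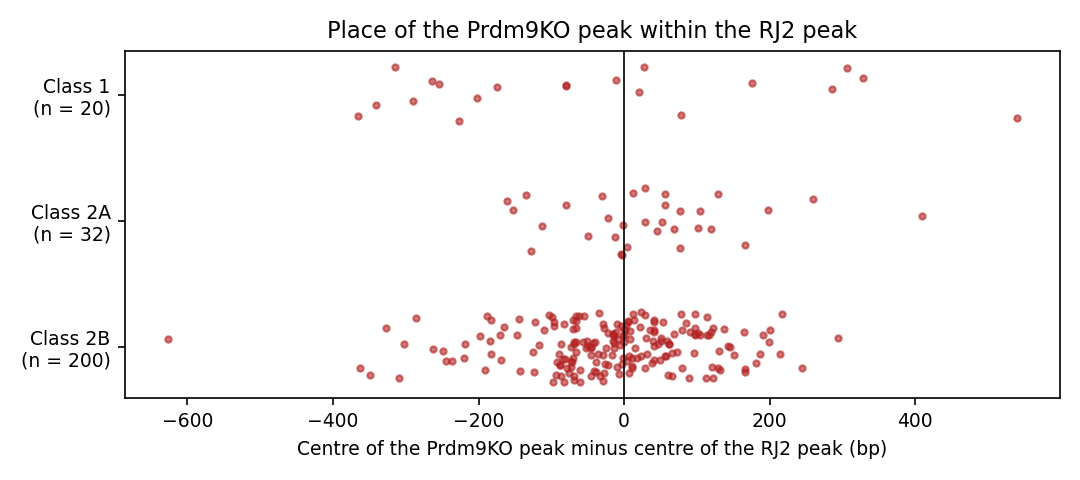
Each point is 1 shared RJ2 peak; the x axis gives the centre of its Prdm9KO peak (that with the longest overlap) minus the RJ2 centre, in bp, and the rows are the classes, with points spread vertically for view only. Class 2B and 2A points gather around 0 (median distances 68.5 and 72.5 bp), while class 1 points lie further out (median 241 bp).

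No Prdm9KO peak met more than 1 shared peak, and 4 shared peaks, all of class 2B, met 2 Prdm9KO peaks each. The widest of these 4, chr8:72606972-72608323, was centred in an intron of Hapln4, a gene for a matrix link protein, 220 bp from a start, and held Prdm9KO peaks of 290 and 444 bp. At the other 3 (chr8:124377624-124378276, chr11:96406869-96407606 in an intron of the adaptor gene Skap1, and chr13:56332410-56332874) the RJ2 widths were 653, 738 and 465 bp. The longest overlaps were 669 bp (the Gm11747 array), 551 bp (chr2:65004906-65006220, an intron of Cobll1) and 467 bp (chr13:99309897-99311208, intergenic). Just inside the rule, the shared peaks with the shortest best overlaps had 90, 134 and 142 bp. Just outside it, the nearest RJ2 peaks that missed a Prdm9KO peak lay 63, 153 and 173 bases from it: a class 1a peak at chr3:93035415-93035910, a class 2B peak at chr2:157282359-157282835 whose centre was 224 bp from a start of the kinase gene Src, and a class 2B peak at chr14:112248834-112249201. Within 1000 bp of a Prdm9KO peak there were 34 RJ2 peaks that missed one.

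Few shared peaks had the marks of a recombination hotspot. By class, 200 were 2B (79.4%, 73.8 to 84.2%), 32 were 2A (12.7%, 8.85 to 17.5%) and 20 were class 1, of which 12 were 1a, 2 were 1b, 6 were 1d and 0 were 1c. Over the whole RJ2 list 71.5% of peaks were class 1. Seen from the classes, 8.17% of 2B peaks (200 of 2449, 7.11 to 9.32%) and 7.31% of 2A peaks (32 of 438, 5.05 to 10.2%) were shared, against 0.276% of class 1 peaks (20 of 7234, 0.169 to 0.427%). The intervals of 2B and 2A overlap, and that of class 1 lies below both. Within class 1, the share was 0.188% in 1a (12 of 6391, 0.0971 to 0.328%) and 1.49% in 1d (6 of 404, 0.547 to 3.2%), the class with RJ2-specific H3K4me3 but no DMC1.

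The central 400 bp of an RJ2 DMC1 peak was met by 14 shared peaks (5.56%, 3.07 to 9.15%) and by 6816 of the other 9869 RJ2 peaks (69.1%, 68.1 to 70.0%). The share over all RJ2 peaks was 67.5%. RJ2-specific H3K4me3 over at least 10% of the interval was found at 18 shared peaks (7.14%, 4.29 to 11.1%) and 6777 other RJ2 peaks (68.7%, 67.7 to 69.6%), and at 67.1% of all RJ2 peaks. H3K4me3 common to both strains showed the opposite order, at 34 shared peaks (13.5%, 9.53 to 18.3%) and 674 others (6.83%, 6.34 to 7.35%), with 7.00% over all. Within class 2 this order was not seen. Of 2A peaks, which have this mark, 7.31% were shared, and of 2B peaks, which lack it, 8.17%. Where the Prdm9KO centre lay within 100 bp of the RJ2 centre (165 shared peaks, a subset formed after the data were seen), only 2 met a DMC1 centre (1.21%, 0.147 to 4.31%), and 6 were class 1, 19 class 2A and 140 class 2B.

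**Figure D2:**
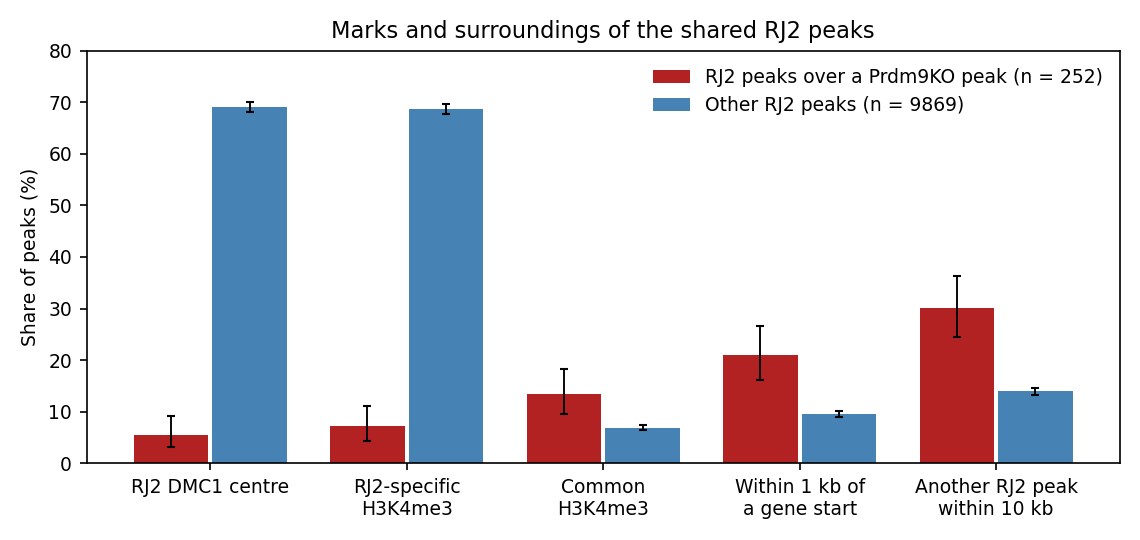
Bars give the share of peaks (%) with each mark or neighbour for RJ2 peaks over a Prdm9KO peak (left of each pair) and other RJ2 peaks (right), with 95% Clopper-Pearson intervals. The DMC1 and RJ2-specific H3K4me3 shares are 5.56% and 7.14% in shared peaks against 69.1% and 68.7% in the others, and the other 3 shares are higher in shared peaks. All classes are pooled in each bar.

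The 12 class 1a shared peaks, which by the class rule carry both the DMC1 and the RJ2-specific H3K4me3 mark, ranged over rows 42 to 5294 of the RJ2 list, and 2 of them lay in introns of Pax5. Others were in introns of Ryr2, the cardiac calcium release channel, and of Trp63, a transcription factor of stratified epithelia. Both class 1b shared peaks had common H3K4me3 beside DMC1: the first-listed, row 2063 in an intron of the ascorbate transporter gene Slc23a1, over 28.0% of its interval, and the other, in an intron of the receptor gene Erbb4, over 100%. In the 32 class 2A shared peaks common H3K4me3 covered 95.9% of the interval at the median, with 15.3% at the lowest, the first-listed one at Arhgef1.

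Row number in the RJ2 list separated shared from other peaks mainly within class 2. The study's methods describe taking the best-ranked peaks of the pooled reads by p-value, and whether the row order is that ranking is not stated in the list. When it was cut into 10 equal parts (deciles), the median width was 964 bp in decile 1 and 357 bp in decile 10, and class 2 peaks made up 1.38% and 55.4% of these deciles. In class 2B the median widths of these deciles were 1260.5 and 358 bp. A wide interval has more room to meet another, so row number is tied to the rule through width. Row number at equal width was not compared. Shared peaks ran from row 42 to row 9882, a 410 bp class 2B peak in an intron of Lims2, with their middle at row 4305, a class 2B peak in an intron of Svop, a synaptic vesicle gene. Their median row stood at 42.6% of the list (quartiles 27.3 and 60.8%), and that of the other RJ2 peaks at 50.3% (24.9 and 75.3%). Deciles 3, 4 and 5 held the most shared peaks, 44, 42 and 41, with 10 in decile 1 and 4 in decile 10.

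Within class 2B the difference was wider, with a median place of 43.7% for shared peaks (quartiles 30.3 and 62.8%) and 73.9% for the others (55 and 88.5%). In class 2A it was 39.2% (23.7 and 58.5%) against 64.7% (42.6 and 84.9%). In class 1 it was 30.4% (20.4 and 48.0%) against 40.0% (18.5 and 66.0%), so the quartile ranges largely coincide. By decile, shared peaks made up 8 of 14 class 2 peaks in decile 1 (57.1%, 28.9 to 82.3%), 17 of 63 in decile 2 (27.0%, 16.6 to 39.7%) and 38 of 144 in decile 3 (26.4%, 19.4 to 34.4%). The share was 13.5% in decile 5 (38 of 282) and 0.713% in decile 10 (4 of 561, 0.195 to 1.82%). Each successive decile had a lower share than the one before, with overlapping intervals between neighbours as far as decile 9. Without decile 1, which holds few class 2 peaks, the order is the same. Class 1 peaks over a Prdm9KO peak numbered 2, 2, 6 and 3 in deciles 1 to 4. No test of these differences over mice could be made, because each list pools its replicates.

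**Figure D3:**
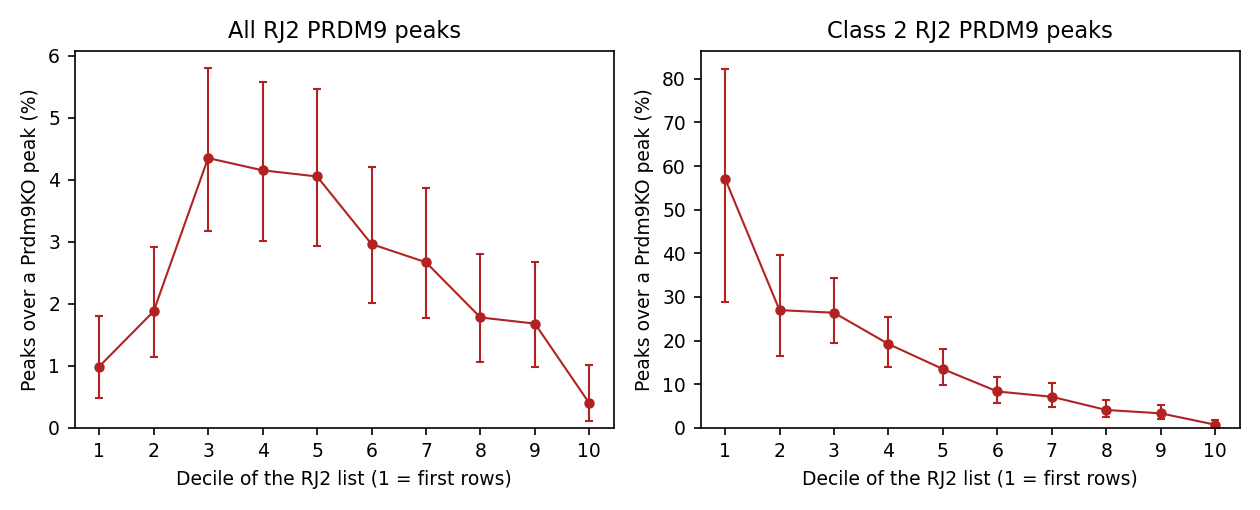
The y axis gives the percentage of RJ2 PRDM9 peaks that lie over a Prdm9KO peak in each decile of the RJ2 list (x axis, list order), for all peaks (left) and class 2 peaks (right), with 95% Clopper-Pearson intervals. Over all peaks the share is highest in decile 3 (4.35%), and among class 2 peaks it is highest in decile 1 (57.1%) and lowest in decile 10 (0.713%).

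Shared peaks were wider than other RJ2 peaks, a measure tied to the rule because a wide interval has more room to meet another. Their median width was 631 bp (quartiles 523 and 832 bp, range 344 to 2038 bp), against 550 bp (433 and 738 bp) for the others. In class 2B the medians were 616 bp (522 and 800 bp) and 461 bp (384 and 583 bp). In class 2A they were 636 and 513 bp, and in class 1 they were 839 and 588 bp. By quintiles of class 2B width, 1 of 489 peaks was shared in the narrowest (219 to 375 bp) and 84 of 490 in the widest (17.1%, 13.9 to 20.8%). Within deciles of the list the order of the class 2B widths was mixed. Shared peaks had the smaller median in deciles 1, 2, 3 and 6 (771 bp against 832 bp in decile 3, and 553 bp against 559 bp in decile 6) and the larger one in deciles 4, 5, 7, 8, 9 and 10 (627 bp against 606 bp in decile 5, and 553 bp against 509 bp in decile 7). Decile 1 holds only 12 class 2B peaks. The widest shared peaks were the Gm11747 array (2038 bp), chr15:103013190-103014773 (1584 bp, class 2B, intergenic, 25599 bp from the start of the DNA glycosylase gene Smug1) and the class 1d peak near Ddit4 (1528 bp).

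**Figure D4:**
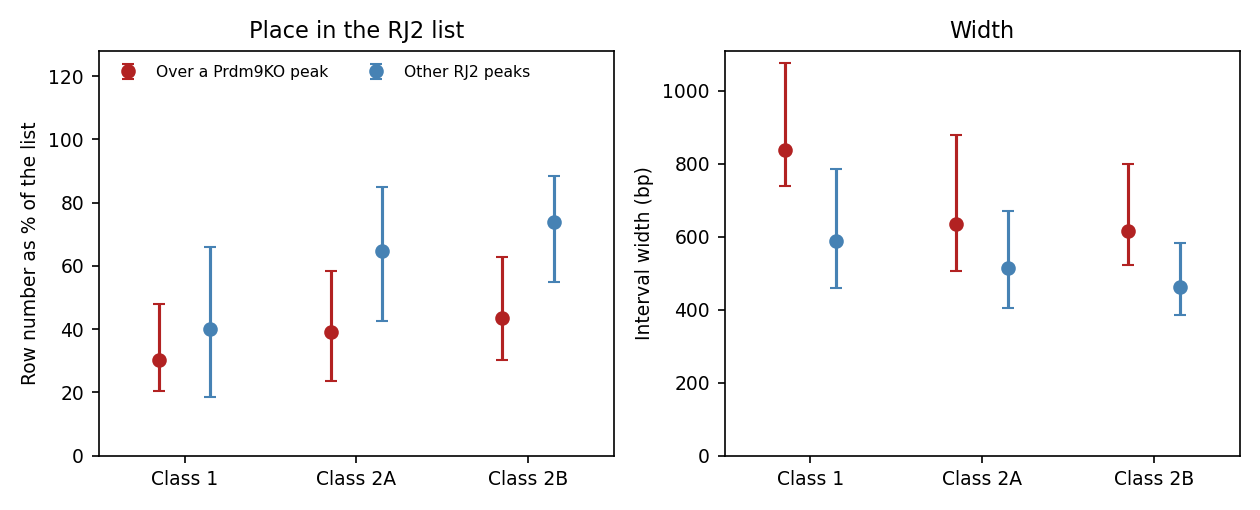
Points are medians and bars run from the lower to the upper quartile, for shared RJ2 peaks and other RJ2 peaks of each class; the left plot gives the row number as a percentage of the list and the right the interval width in bp. In class 2B the shared peaks stand at 43.7% of the list against 73.9%, and are 616 bp wide against 461 bp.

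Shared peaks occurred on every autosome and not on X. Chromosome 15 had the highest share, 23 of 466 RJ2 peaks (4.94%, 3.15 to 7.31%), followed by chromosome 5 with 33 of 708 (4.66%, 3.23 to 6.48%). Chromosome X had 0 of 158, with a Clopper-Pearson upper limit of 2.31% (3 counts of the total, the limit used for a count of 0, give 1.90%), and carried 9 Prdm9KO peaks. Among autosomes the lowest shares were 1.04% on chromosome 14 (4 of 386, 0.283 to 2.63%) and chromosome 19 (3 of 289, 0.215 to 3%). The intervals of chromosomes 15 and 5 lay above the 2.49% of all RJ2 peaks, while those of most other chromosomes included it. Of the Prdm9KO peaks on chromosome 15, 22.3% (23 of 103) were overlapped, against 4.40% (4 of 91) on chromosome 14. Among class 2 peaks alone chromosome 15 still had the highest share, 13.8% (23 of 167), and chromosome 5 had 12.6% (30 of 239).

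**Figure D5:**
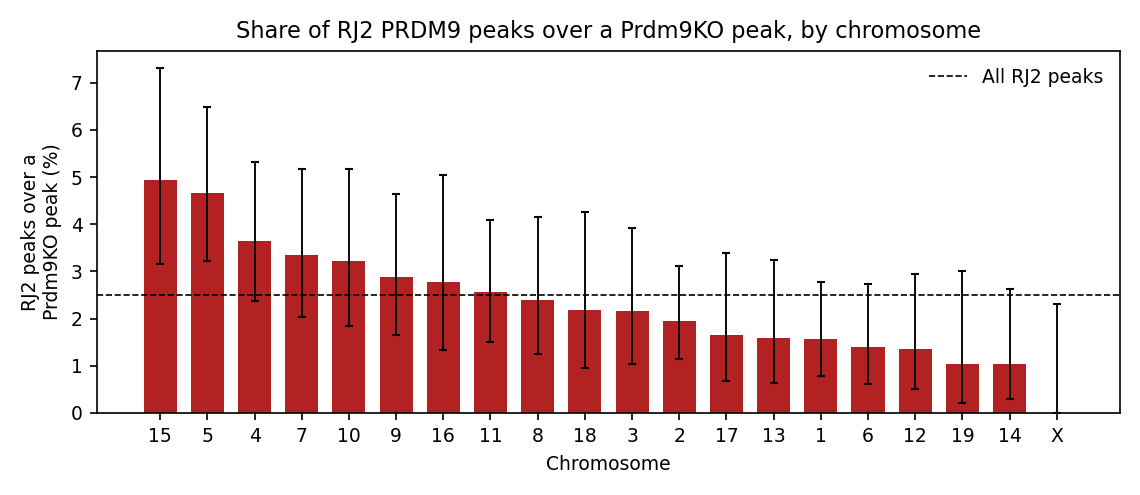
Bars give the percentage of RJ2 PRDM9 peaks on each chromosome that lie over a Prdm9KO peak, in descending order, with 95% Clopper-Pearson intervals; the dashed line is the 2.49% of all RJ2 peaks. Chromosomes 15 and 5 stand highest, at 4.94% and 4.66%, and X has none of 158.

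Shared peaks rarely clustered with each other at short range. Only 6 (2.38%) lay within 10 kb of another shared peak, as 3 pairs, and the nearest other one was 1140 kb away at the median. Close pairs shared a gene. The closest, 907 bases apart, were chr5:118476845-118477611 and chr5:118478519-118479203, at rows 2303 and 1064, on either side of the start of Tesc, which encodes a calcium-binding protein. The others were 1392 bases apart in Maff, a small Maf transcription factor gene (chr15:79181376-79182039 and chr15:79183432-79183943), and 1742 bases apart in Iffo2 (chr4:139140734-139141305 and chr4:139143048-139144572). Widening the distance to 100 kb took in 32 shared peaks (12.7%), and to 1 Mb 116 (46.0%). With any other RJ2 peak as the neighbour, 76 shared peaks (30.2%, 24.6 to 36.2%) had one within 10 kb, against 1372 others (13.9%, 13.2 to 14.6%) and 14.3% of all RJ2 peaks. In class 2B alone the shares were 33.0% (26.5 to 40.0%) and 23.7% (21.9 to 25.5%), and in class 1 30.0% (11.9 to 54.3%) and 10.6% (9.88 to 11.3%). In class 2A the order was the reverse, 12.5% (3.51 to 29.0%) and 19.0% (15.3 to 23.1%), with overlapping intervals.

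The fullest 1 Mb window, chr15:79000001-80000000, held 5 shared peaks among 13 RJ2 peaks and 8 Prdm9KO peaks. The window chr5:122000001-123000000 held 4 among 17 RJ2 and 9 Prdm9KO peaks. Of the windows with 3, the first in genome order was chr4:44000001-45000000, with 7 RJ2 and 5 Prdm9KO peaks, and its 3 shared peaks all lay in Pax5. These were 2 class 1a peaks (chr4:44586022-44587213 and chr4:44554977-44555729) and a class 2A peak (chr4:44717576-44718119) whose centre was 970 bp from a start. The Prdm9KO centre was 329, 11 and 101 bp from the RJ2 centre at these 3 peaks. In 202 windows there was at least 1 shared peak, and in 37 more than 1.

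Gene starts were near shared peaks more often than near other RJ2 peaks, but not detectably so within a class. The centre lay within 1 kb of an annotated transcription start in 53 shared peaks (21.0%, 16.2 to 26.6%), against 941 others (9.53%, 8.96 to 10.1%) and 9.82% of all. Within class 2A it did so in 25 of 32 (78.1%, 60 to 90.7%) against 271 of 406 (66.7%, 61.9 to 71.3%), and in class 2B in 27 of 200 (13.5%, 9.09 to 19.0%) against 293 of 2249 (13.0%, 11.7 to 14.5%), both pairs with overlapping intervals. Shared peaks were centred in introns in 125 cases (49.6%), between genes in 108 (42.9%), in untranslated exon sequence in 9, in coding exons in 6 and in other exons in 4. The other RJ2 peaks had 48.9% in introns and 45.3% between genes.

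The 53 peaks near a start named 57 genes, 51 of them protein-coding. From the list of meiosis genes 1 of 35 was there, Spo11 itself, and from 243 ribosomal protein genes and their pseudogenes by symbol, 1, Rps10. Lists of somatic testis markers (12 genes), chromatin architecture (11), histones (92) and zinc finger proteins (372) had none. Over all RJ2 peaks the same lists had 2 meiosis, 3 ribosomal, 0 somatic, 0 architecture, 2 histone and 14 zinc finger genes. The shared peak at Spo11, the catalytic subunit that makes meiotic breaks, was chr2:172805371-172805860, row 5032, class 2A. It was centred in an intron 266 bp from a start, with 100% of its length in common H3K4me3, and its Prdm9KO peak of 209 bp was centred 28.5 bp from the RJ2 centre. At Rps10, a protein of the small ribosomal subunit, the peak chr17:27771433-27772073 (row 2573, class 2A) was 421 bp from a start, 91.4% covered by common H3K4me3, with a Prdm9KO peak of 307 bp centred 56 bp away. Chosen after their values were seen, 2 class 2B peaks lay at starts of regulators of transcription: Nr5a1, the steroidogenic factor of gonads, at 151 bp, and Hoxa9, a homeobox factor, at 599 bp.

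A total of 5 of the 252 shared peaks (1.98%, 0.647 to 4.57%) also lay over a PRDM9 peak of Spo11KO testes. Of the other RJ2 peaks 20 did (0.203%, 0.124 to 0.313%), and 0.247% of all. In class 2B the counts were 5 of 200 (2.5%, 0.817 to 5.74%) and 17 of 2249 (0.756%, 0.441 to 1.21%), with overlapping intervals. All 5 shared peaks were class 2B and none was within 1 kb of a gene start. They were chr2:65004906-65006220 (row 1615, in Cobll1), chr12:9763034-9763615 (row 3562), chr15:55122862-55123568 (row 3650), chr9:67514063-67514512 (row 4320) and chr11:71808648-71809115 (row 6129), the last 4 between genes. The RJ2, Spo11KO and Prdm9KO intervals had 390, 147, 198, 191 and 90 bp in common at these sites, in that order. The Spo11KO list counts 1070 peaks, of which 13 met a Prdm9KO peak and 5 met both. Of 2601 B6 PRDM9 peaks, 2 met a Prdm9KO peak. The methods describe clearing the RJ2, B6 and Spo11KO lists of peaks over Prdm9KO peaks. These counts are thus what stayed after that removal and do not compare genotypes. No RJ2 peak met a B6 PRDM9 peak, since peaks found in both strains are not in these lists.

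In base composition shared peaks were close to other class 2 peaks. Median GC content of the central 200 bp was 51.5% in shared peaks (quartiles 47.0 and 55.5%) and 46.5% in other RJ2 peaks (42.0 and 51.0%). In class 2B it was 51.5% against 50%, in class 2A 54.8% against 54.5% and in class 1 48.8% against 45.0%. CpG-rich centres (GC at least 55% and observed over expected CpG at least 0.65) made up 7.54% of shared peaks (19, 4.60 to 11.5%) and 1.78% of the others, and within class 2B 5.50% (2.78 to 9.63%) and 3.29% (2.59 to 4.11%). The 100 kb around shared peaks had a median GC of 48.6%, against 44.3% around other RJ2 peaks, and 48.9% against 47.7% in class 2B. On the Prdm9KO side, the overlapped peaks had 48.6% and the other Prdm9KO peaks 43.2%.

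Neither of the motifs looked for was frequent in the shared peaks. The core motif of CTCF, the insulator protein, allowing 1 mismatch on either strand, was in the central 200 bp of 7 shared peaks (2.78%, 1.12 to 5.64%), 3.65% of other class 2B peaks (2.91 to 4.51%) and 1.98% of all RJ2 peaks. The 9-letter word AAGGTCACA stood out in class 1a peaks that were not shared (2.94% of central 200 bp windows on odd-numbered chromosomes, 0.334% of windows 2 kb away). With 1 mismatch allowed, on either strand, it was in 23 shared peaks (9.13%, 5.87 to 13.4%), 7.91% of other class 2B peaks (6.83 to 9.11%) and 19.6% of other class 1 peaks (18.7 to 20.6%). Of the 20 class 1 shared peaks, 1 held it (5.00%, 0.127 to 24.9%). Most other class 1 peaks lacked the word too, and windows beside the peaks were not searched with 1 mismatch. These shares therefore do not tell whether a PRDM9 motif is present.

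All 8-letter words, on either strand, were then ranked by the difference between their shares in shared peaks and in other class 2B peaks, a choice made on these same peaks, so the shares below describe and test nothing. The word highest above other class 2B peaks was the dinucleotide run GAGAGAGA (10.3% against 3.78%). Next came CCAGGAAG, in 25 shared peaks (9.92%, 6.52 to 14.3%), all of class 2B, against 3.96% of other class 2B peaks (3.19 to 4.85%) and 2.84% of all RJ2 peaks. When the choice was made on odd-numbered chromosomes alone, leaving out such repeat runs, another word came first, GGGAGCAC, and on the remaining chromosomes it was in 10.4% of shared peaks (5.30 to 17.8%) and 5.82% of other class 2B peaks (4.49 to 7.39%), with overlapping intervals. The centres of overlapped Prdm9KO peaks held CCAGGAAG in 37 of 256 cases (14.5%, 10.4 to 19.4%), against 102 of the other 2029 (5.03%, 4.12 to 6.07%). The bases around CCAGGAAG were alike too. Of 40 aligned positions, 20 had 1 letter in at least 50% of its 25 sites, the 8 of the word itself included. The sites that ranked 1, 2, 3 and 5 in closeness to that majority sequence are shown, and that of rank 4, in a Sorcs2 intron, is left out. The 4 shown, in shared peaks in Snx29, Fgd5 and Tbc1d2 introns and 1 between genes, follow in that order. Each is on the strand that carries the word, with the word in capitals.

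Intergenic, minus strand, chr2:179741032-179741071: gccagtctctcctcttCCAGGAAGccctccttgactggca

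Snx29 intron, plus strand, chr16:11705293-11705332: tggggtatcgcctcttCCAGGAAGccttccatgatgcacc

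Fgd5 intron, minus strand, chr6:91967395-91967434: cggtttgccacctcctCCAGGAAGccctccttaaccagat

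Tbc1d2 intron, minus strand, chr4:46619027-46619066: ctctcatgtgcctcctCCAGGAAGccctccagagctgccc

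Each of these 4 runs has cctc shortly before the word and tcc shortly after it, and the letters further out differ. No repeat annotation was used, so whether the run belongs to a repeat family was not examined.

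The word furthest below other class 2B peaks was AAAATGGG, in 10 shared peaks (3.97%, 1.92 to 7.18%) against 299 other class 2B peaks (13.3%, 11.9 to 14.8%). The share in shared peaks was near the 4.37% of all RJ2 peaks. Among the others, class 1 peaks had 1.43% and class 2A peaks 7.39%, so the other class 2B peaks stood highest. The choice on odd-numbered chromosomes alone gave the same word, and on the remaining chromosomes it was in 5.66% of shared peaks (2.11 to 11.9%) and 13.1% of other class 2B peaks (11.2 to 15.3%), with intervals that overlap slightly. Its sites in other class 2B peaks had a common context, in which 24 of 40 aligned positions had a majority letter, again with the 8 of the word. The run resembles letters known from the core of MIR, an old interspersed repeat family of mammals, but no repeat annotation was used. A shared peak with it and 1 other class 2B peak read as follows, with the word in capitals.

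Shared peak near Snd1, minus strand, chr6:28418128-28418167: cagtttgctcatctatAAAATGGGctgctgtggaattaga

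Other class 2B peak in Nfatc2, minus strand, chr2:168395918-168395957: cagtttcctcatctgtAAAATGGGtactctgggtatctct

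The run before the word is nearly the same in both, and the letters after it are unlike each other. Prdm9KO peaks held the word at low shares whether overlapped (3.91%, 10 of 256) or not (3.06%, 62 of 2029).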

How the data were processed

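Of the peak lists that the authors deposited (mm9), 9 were used: PRDM9 in RJ2, B6, Prdm9KO and Spo11KO, DMC1 in RJ2 and B6, and 3 of H3K4me3 (shared by the strains, RJ2 only, B6 only). Per the file headers and the values, the deposited unit is a peak position, with no score, count or depth. Per the labels and the study's methods, reads were mapped to mm9 (Bowtie, Bowtie2 and BWA are named), peaks were called with MACS2 or an earlier MACS, and PRDM9 and DMC1 peaks were chosen by reproducibility between replicates, except in Prdm9KO with its single library. The methods describe the removal of PRDM9 peaks over Prdm9KO peaks, yet the RJ2 list used here still holds 252. The RJ2 list is not in genome order, and the Prdm9KO list is.

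Intervals were intersected at 1 bp or more. Classes followed the study's rule, with the central 400 bp of DMC1 peaks and an H3K4me3 coverage of 10% or more of each PRDM9 interval; published H3K4me3 lists of other studies were not used here. Starts and exons are those of GENCODE on the same build (NCBIM37), and sequence was read from that genome. The planned share of repeat-masked bases is void, because the genome used is written in capitals throughout, and stretches of 300 rather than 200 bases are shown, because Prdm9KO peaks are mostly wider than 200. Shares have exact 95% Clopper-Pearson intervals. Because lists pool replicates, no comparison over mice, no p-value and no value per library could be given. Sites named are the first, middle and last shared peak in the list, the first of each class, the 3 widest, the 3 longest and the shortest overlaps, the 3 nearest misses, the peaks over Spo11KO or over more than 1 Prdm9KO peak, the closest pairs, the 3 fullest windows, the extreme chromosomes, and peaks at genes of the 6 lists. The shared peaks, gene lists and rules were chosen with earlier results of these data known. Overlap, class and word searches were tested on simulated data. Python 3.11.15, numpy 2.4.6, scipy 1.17.1, pysam and matplotlib 3.10.9 were used. H3K36me3 libraries were not used.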

Additional observations from a re-analysis of the deposited data

How the results depend on the processing

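Alternatives were tried for 10 results, giving 50 values, of which 42 were planned and 8 were added after seeing the data. In 42 of the 50 the value stayed within the interval of the reported one (or within 1.5 times, for the number of shared peaks). An overlap of at least 50 bp left all 252 shared peaks, at least 50% of the Prdm9KO interval left 251, and 1 per 10 kb cluster left 249. With only the first 1143 peaks of the Prdm9KO list 122 were left, but that list is in genome order, so this splits by chromosome and not by strength. Asking for a Prdm9KO centre within 100 bp of the RJ2 centre, the added alternative, left 165, with a median width of 554 bp against 631 bp and a DMC1 share of 1.21% against 5.56%. The share near a transcription start was 11.9% within 500 bp and 7.94% where the interval holds a start, against 21.0% within 1 kb. The share within reach of another shared peak was 12.7% at 100 kb and, by construction, 0% with 1 peak per cluster, against 2.38% at 10 kb. GC content was 51.0% over 400 bp and 51.5% over 200 bp. The values compared are counts, medians and shares, which have no sign to reverse, so reversal was not tested. No paired analysis was possible because the lists pool the replicates, and leaving out each replicate could not be run for the same reason. The study states read numbers per library, but the lists hold no reads per peak, so how many RJ2 peaks a Prdm9KO library of another depth would meet was not tested.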
